A study of Mus musculus with 6 samples.

Results

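The non-classical MHC class I genes H2-Q2, H2-Q4, H2-Q6, H2-Q7, H2-T10, H2-T22, H2-T23, H2-T24 and H2-M3 were followed in regulatory T cells (Treg cells) of the mouse with and without Crlf2. They were taken by symbol, keeping for each symbol the transcript row with the most reads over the 6 libraries. All 9 of 9 were found among the 23992 symbols of the deposited table, and all 9 passed the filter on low counts that 12720 genes passed. Crlf2 encodes the receptor chain specific for the cytokine TSLP, and the series asks, by its title, whether TSLP acting on Treg cells maintains their identity. The 3 KO libraries came from male Foxp3YFP-Cre/Y Crlf2fl/fl mice and the 3 WT libraries from male Foxp3YFP-Cre/Y mice, so both groups carry the same Cre, driven from the Foxp3 locus and therefore acting in Foxp3-expressing cells. Both kinds of mice were CD45.2, and live CD4+YFP+ cells were sorted from their lymph nodes and spleen, pooled. Title and genotype tag set the groups, although a strain line in each description names the opposite strain, and lung appears in the title of the deposited table. The labels do not say that replicates were separate mice, and the p-values below therefore cover only library-to-library spread, which may be technical. Means are given ± SD over the 3 libraries of a group.

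MHC class I molecules are cell-surface heavy chains that pair with beta-2 microglobulin, the light chain encoded by B2m. Classical molecules such as H2-K and H2-D vary greatly between individuals and present many peptides to CD8 T cells, whereas non-classical molecules vary little and have narrower ligands. Interferons raise class I transcription through IRF factors and the transactivator NLRC5, and class I promoters are known for NF-kB, interferon-response and CCAAT-type elements. H2-T23 encodes the heavy chain of Qa-1, which shows leader peptides of other class I molecules to the CD94-NKG2A receptor and is also recognised by regulatory CD8 T cells. H2-Q7 encodes Qa-2, a molecule held in the membrane by a lipid anchor, and H2-Q6 is a close relative of it. H2-M3 presents peptides that begin with formyl-methionine, as bacterial and mitochondrial proteins do. T22 and T10, the products of H2-T22 and H2-T10, are ligands of a subset of gamma-delta T cell receptors and need no peptide to fold.

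These genes are so alike that short reads cannot always be placed, and the similarity is shown here because it bears on how far counts of the closest pairs can be separated. All lie on chromosome 17 (GRCm38, the assembly behind mm10; GENCODE M21), in order H2-Q2 at chr17:35342242-35346762, H2-Q4 at chr17:35379617-35385290, H2-Q6 at chr17:35424850-35430055 and H2-Q7 at chr17:35439155-35443773, all on the plus strand. They are followed by H2-T24 at chr17:36005695-36020560, H2-T23 at chr17:36029773-36032855, H2-T22 at chr17:36037128-36042747 and H2-T10 at chr17:36115876-36121465, all on the minus strand, and by H2-M3 at chr17:37270220-37274484 on the plus strand. H2-T10 is annotated as a polymorphic pseudogene, the others as protein coding. Stretches of 90 coding bases from exon 2 of the 4 Q genes, from GENCODE M21 transcripts, are aligned to H2-Q7, and capitals mark bases that differ from it. H2-Q2 differed at 7 of these 90 bases (chr17:35342656-35342745), H2-Q4 at 11 (chr17:35379960-35380049) and H2-Q6 at 8 (chr17:35425164-35425253), against H2-Q7 at chr17:35439508-35439597, all on the plus strand.
H2-Q7: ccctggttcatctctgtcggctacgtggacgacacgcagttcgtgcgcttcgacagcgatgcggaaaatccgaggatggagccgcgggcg
H2-Q6: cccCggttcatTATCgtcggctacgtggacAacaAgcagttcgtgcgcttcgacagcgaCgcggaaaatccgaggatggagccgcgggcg
H2-Q4: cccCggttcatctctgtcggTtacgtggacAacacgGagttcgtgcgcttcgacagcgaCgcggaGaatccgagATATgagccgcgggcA
H2-Q2: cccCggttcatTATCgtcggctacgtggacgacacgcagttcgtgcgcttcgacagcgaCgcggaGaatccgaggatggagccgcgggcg
An exon 2 stretch of H2-T10 (chr17:36120751-36120840) differed from the aligned stretch of H2-T22 (chr17:36042004-36042093) at 1 of 90 bases, in capitals, both read on the minus strand. The stretches of this pair were not aligned to those of the Q genes.
H2-T22: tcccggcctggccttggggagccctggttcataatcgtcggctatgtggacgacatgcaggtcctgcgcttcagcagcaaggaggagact
H2-T10: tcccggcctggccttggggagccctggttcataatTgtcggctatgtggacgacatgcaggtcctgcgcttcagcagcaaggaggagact

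Over the whole aligned coding sequence, H2-T10 and H2-T22 were 96.91% identical and H2-Q6 and H2-Q7 95.4%. H2-Q4 was 90.8% and H2-Q2 88.02% identical to H2-Q7, and H2-T24 was the most distant, at 66.84% to 70.87% against the other 8 genes, H2-K1 and H2-D1. Transcripts were also cut into every 50-base window, and each window was looked up in the transcripts of 15 other class I genes. The share of windows found without a mismatch in any of them was 44.04% for H2-T22, 36.8% for H2-Q6, 36.74% for H2-Q7 and 30.3% for H2-T10. It was 15.77% for H2-Q4, 11.17% for H2-T23, 7.58% for H2-Q2, 1.27% for H2-T24 and 0.58% for H2-M3. By this measure H2-M3, H2-T24 and H2-Q2 have the most distinct transcripts, and H2-T22, H2-Q6, H2-Q7 and H2-T10 the least. The search left out Gm7030, which overlaps H2-T10, and H2-Q8 and H2-T9, whose transcripts had no match in GENCODE M21. The shares are therefore lower bounds. How reads matching several places were counted is not stated by the sources used here.

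**Figure D1:**
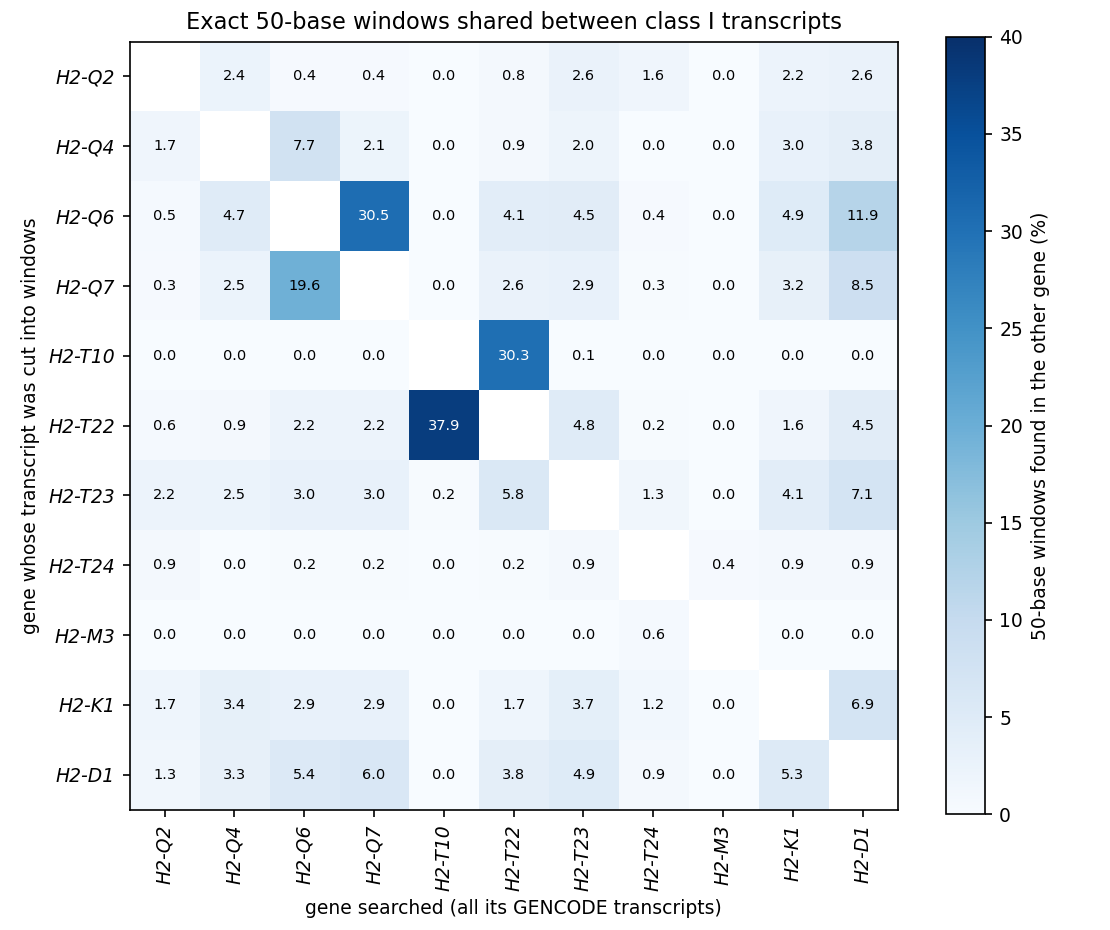
Share of the exact 50-base windows of each class I transcript (rows) that also occur in another gene's transcripts (columns), in percent, with darker blue for a larger share. The pairs H2-T22 with H2-T10 (37.9% of H2-T22 windows) and H2-Q6 with H2-Q7 (30.5% of H2-Q6 windows) stand out, while the row of H2-M3 is nearly empty.

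Near-identical counts were looked for in the deposited table. Among 23 class I genes with at least 1000 summed reads, 253 pairs were compared, and 3 pairs had counts within 5% of each other in each of the 6 libraries. H2-Q7 and H2-Q9 differed by at most 5 reads (0.0495%) in any library, H2-T22 and H2-T9 by at most 32 reads (1.54%), and H2-Q6 and H2-Q8 by at most 68 reads (2.38%). No pair was identical in all libraries (0 of 253), and in no near-identical pair were both genes among the 9 described here. The values of H2-Q7, H2-T22 and H2-Q6 below therefore cannot be told apart from those of H2-Q9, H2-T9 and H2-Q8. GENCODE M21 in fact places the transcript that the deposited table calls H2-Q9 in the gene H2-Q7. The annotation has the antisense gene A930015D03Rik over H2-T22, H2-T23 and H2-T24, Gm7030 spans H2-T10 on the same strand, and BC023719 and Gm11131 lie antisense to H2-T10 and H2-Q4. A930015D03Rik had 57, 63 and 96 reads in KO libraries and 54, 8 and 43 in WT libraries. Without a stated strand setting, its reads and those of its partners cannot be told apart. Gm7030 had 1096, 1406 and 2436 reads in KO libraries and 919, 169 and 975 in WT libraries. H2-T10 had 584, 867 and 1022 in KO and 772, 174 and 749 in WT. How reads over both of these genes were counted is not stated.

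Library totals were 9649601, 11583969 and 18352401 reads in the KO libraries, against 7971181, 1439736 and 12180569 in the WT libraries, in the order of their replicate numbers, so WT replicate 2 was the shallowest. Reads of the 9 genes made up 0.264%, 0.312% and 0.304% of the KO libraries and 0.370%, 0.410% and 0.246% of the WT libraries. Crlf2 reads numbered 93, 84 and 68 in KO libraries, against 694, 213 and 1111 in WT libraries, in keeping with the group labels (edgeR log2 fold change -4.16 with an SE of 0.36, adjusted p = 0.0047). Foxp3, the defining Treg factor, averaged 434 ± 52.1 CPM (reads scaled to a common library size by TMM) in KO and 370 ± 148 CPM in WT libraries. All 13 pan-T cell markers and all 8 Treg markers were detected in every library. Markers of other cells varied between libraries. Erythroid genes (7) took 0.133% to 0.195% of reads in KO libraries and 0.117%, 0.468% and 9.88% in WT replicates 1 to 3. Lung epithelial genes (18) took 1.69%, 2.06% and 0.255% in KO, and 7.95%, 1.78% and 2.33% in WT. Macrophage genes (13 of 14 in the table) took 0.268% to 0.290% in KO, and 0.0395%, 0.0809% and 0.755% in WT. WT replicate 3 thus stood apart, with Treg markers at 0.136% of reads against 0.295% to 0.314% in the other 5 libraries, and results that turn on it are given with and without it. The part of these markers in the results was not tested.

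KO was compared with WT by edgeR's quasi-likelihood F-test over all 12720 genes, and a gene was called at a Benjamini-Hochberg adjusted p under 0.05. Of the 9 genes 1, H2-Q2, rose in KO Treg libraries, and 0 fell. Over all tested genes 1.74% were called, 0.755% higher and 0.983% lower. Of the 9, 7 had a negative log2 fold change, and the median was -0.27, beside -0.044 over all tested genes. In 5 of them (H2-Q7, H2-T10, H2-T22, H2-T24 and H2-M3) the 3 KO libraries lay below the 3 WT libraries, an arrangement found in 11.54% of all tested genes, and in H2-Q2 they lay above, as in 10.45%. At an unadjusted p under 0.05, 4 of the 9 were lower and 1 was higher, against 15.86% of all genes in either direction. DESeq2 called 2 of them lower, H2-Q7 and H2-T22, limma-voom called 0, and limma-voom with sample quality weights called 1, H2-Q7. The share of all genes called lower was 3.9% with DESeq2, 1.38% with limma-voom and 1.74% with quality weights, and the share called higher was 2.89%, 1.05% and 0.825% in the same order. Without WT replicate 3, edgeR called 4 lower, H2-Q7, H2-T10, H2-T22 and H2-T24, against 2.13% of all genes. The WT group was then the shallowest library, replicate 2, and that with the largest lung epithelial share, replicate 1. Their macrophage shares (0.0809% and 0.0395% of reads) lay below those of all KO libraries (0.268% to 0.290%), and the part of this was not tested. In that fit 7 of the 9 had an unadjusted p under 0.05, as did 2475 of 12932 genes. The KO libraries then lay below the WT libraries in 7, with H2-Q6 and H2-T23 added. Such an arrangement is easier to meet with fewer libraries, and its share over all genes was not counted in that fit. In bulk samples such as these, fewer cells of a type and less RNA per cell cannot be told apart.

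**Figure D2:**
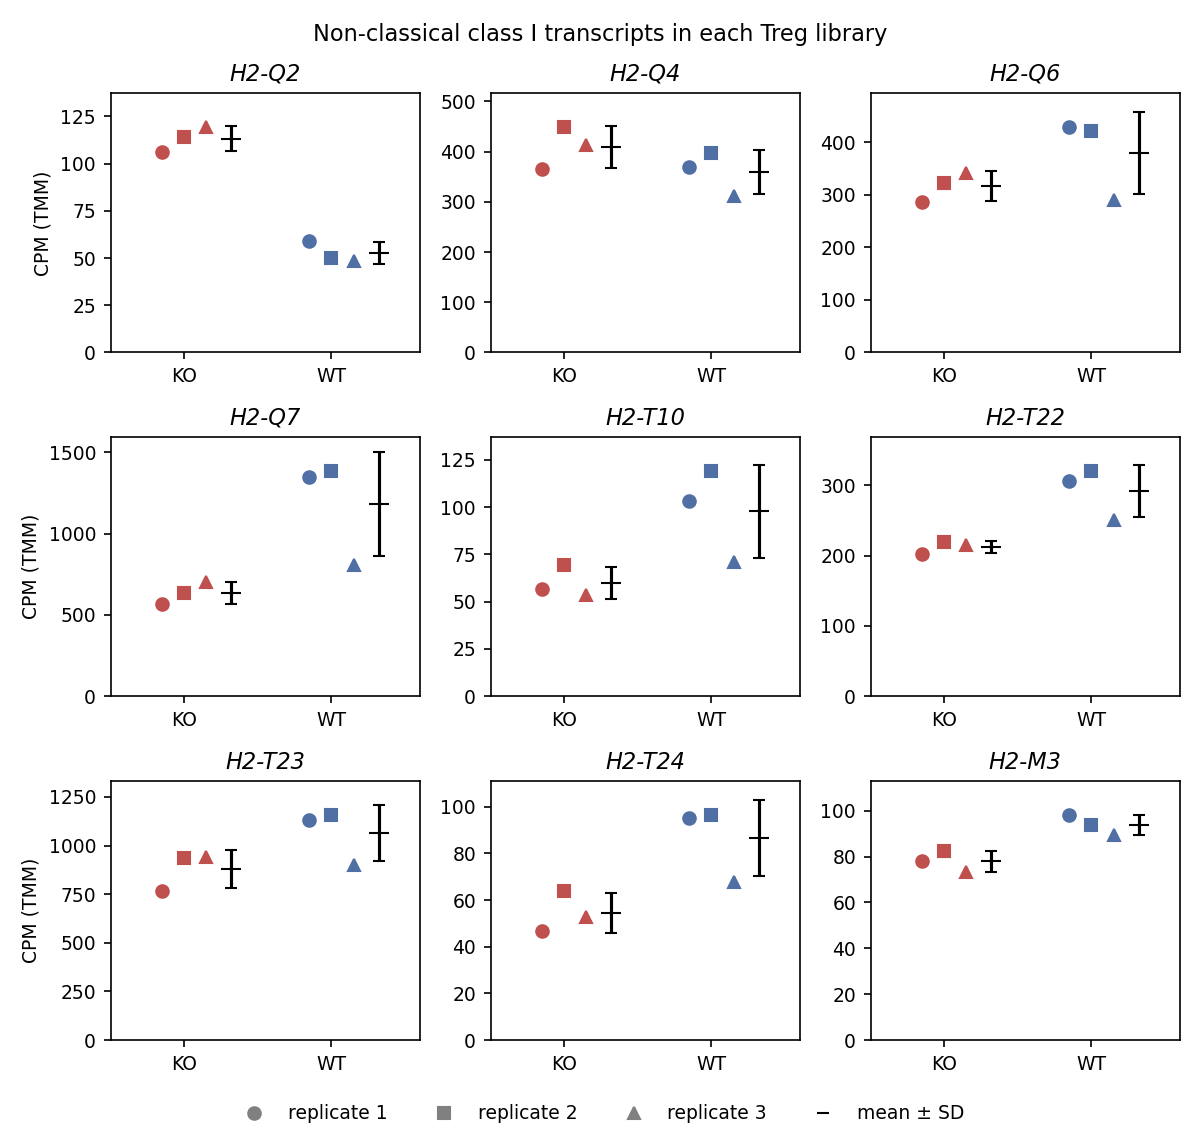
Level of each of the 9 genes in each library, in CPM (TMM-scaled), KO at the left of WT in each panel, with 1 symbol for each replicate number and the mean and SD beside the points. H2-Q2 is the panel in which the 3 KO points lie above the 3 WT points; in H2-Q7, H2-T10, H2-T22, H2-T24 and H2-M3 they lie below, and WT replicate 3 is the lowest WT point in each of those 5.

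H2-Q2, the first along the chromosome of the 4 Q genes followed here, had 106, 114 and 119 CPM in KO libraries, against 59.1, 49.95 and 48.4 CPM in WT libraries. The groups did not overlap, and the lowest KO library was well above the highest WT library. The means were 113 ± 6.52 CPM in KO and 52.5 ± 5.78 CPM in WT, a 2.15-fold difference. On the log2 scale this was 1.11 with an SE of 0.14 and a 95% confidence interval of 0.78 to 1.43 (edgeR adjusted p = 0.0162). The reads behind it were 1092, 1425 and 2285 in KO, against 442, 73 and 512 in WT, so WT replicate 2 rests on few reads. In the 17 alternatives the log2 fold change ran from 0.81 to 1.21 and the adjusted p from 3.17e-08 to 0.126. The call was lost without KO replicate 1 (adjusted p = 0.103), KO replicate 3 (0.126) or WT replicate 2 (0.0526), with the share of lung epithelial reads as a covariate (0.0768), and on scaling to pan-T cell genes (0.107).

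H2-Q7, the Qa-2 gene, differed the other way and by nearly as much. Its level was 565, 637 and 701 CPM in KO libraries, against 1350, 1385 and 810 CPM in WT libraries. The KO libraries were all below the WT libraries, but WT replicate 3 lay closer to the KO group than to the other WT libraries. Means were 634 ± 67.6 CPM in KO and 1182 ± 322 CPM in WT. The log2 fold change was -0.90 (SE 0.20, 95% confidence interval -1.36 to -0.43), which missed the threshold in edgeR (adjusted p = 0.0758). It passed with DESeq2 (adjusted p = 0.000601), with limma-voom and quality weights (0.0226), on scaling to pan-T cell genes (0.0106) and, at -1.10, without WT replicate 3 (edgeR adjusted p = 0.00265). Over all alternatives its adjusted p ranged from 0.000601 to 0.321.

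H2-Q6, the close relative of H2-Q7, had 286, 322 and 341 CPM in KO libraries, against 428, 422 and 290 CPM in WT libraries. Here the groups overlapped, because WT replicate 3 fell among the KO values. edgeR gave it a log2 fold change of -0.26 (SE 0.17, adjusted p = 0.502), or -0.42 without WT replicate 3, when the groups did not overlap. H2-Q4, a further class I gene of the Q region, had 366, 448 and 413 CPM in KO, against 370, 398 and 312 CPM in WT, with overlapping groups. edgeR gave it a log2 fold change of 0.19 (SE 0.13, 95% confidence interval -0.12 to 0.49, adjusted p = 0.548), and on scaling to pan-T cell genes it turned to -0.091. That scaling lowered the median of all genes to -0.36, and relative to this median H2-Q4 stood at 0.27, H2-Q2 at 1.17 and H2-Q7 at -0.79.

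The Q genes thus differed among themselves in the balance of their reads, which a common scaling factor cannot set. For every 100 reads of H2-Q7 there were 18.8, 17.9 and 17.03 reads of H2-Q2 in KO libraries, against 4.38, 3.61 and 5.98 in WT libraries. The means were 17.9 ± 0.889 in KO and 4.65 ± 1.21 in WT, a ratio of 3.85. H2-Q4 had 64.7 ± 5.71 reads for every 100 of H2-Q7 in KO and 31.6 ± 6.08 in WT, and H2-Q6 had 49.97 ± 1.07 in KO and 32.7 ± 2.81 in WT. In none of these 3 ratios did the groups overlap, although WT replicate 3 lay nearest to the KO libraries in each. Against the classical gene H2-K1, H2-Q7 had 15.1 ± 0.876 reads for every 100 in KO and 27.4 ± 2.31 in WT, and H2-Q2 had 2.71 ± 0.118 in KO and 1.26 ± 0.241 in WT. These ratios were chosen after the values were seen and carry no test. They show unequal change within a library, not which gene of a pair changed.

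**Figure D3:**
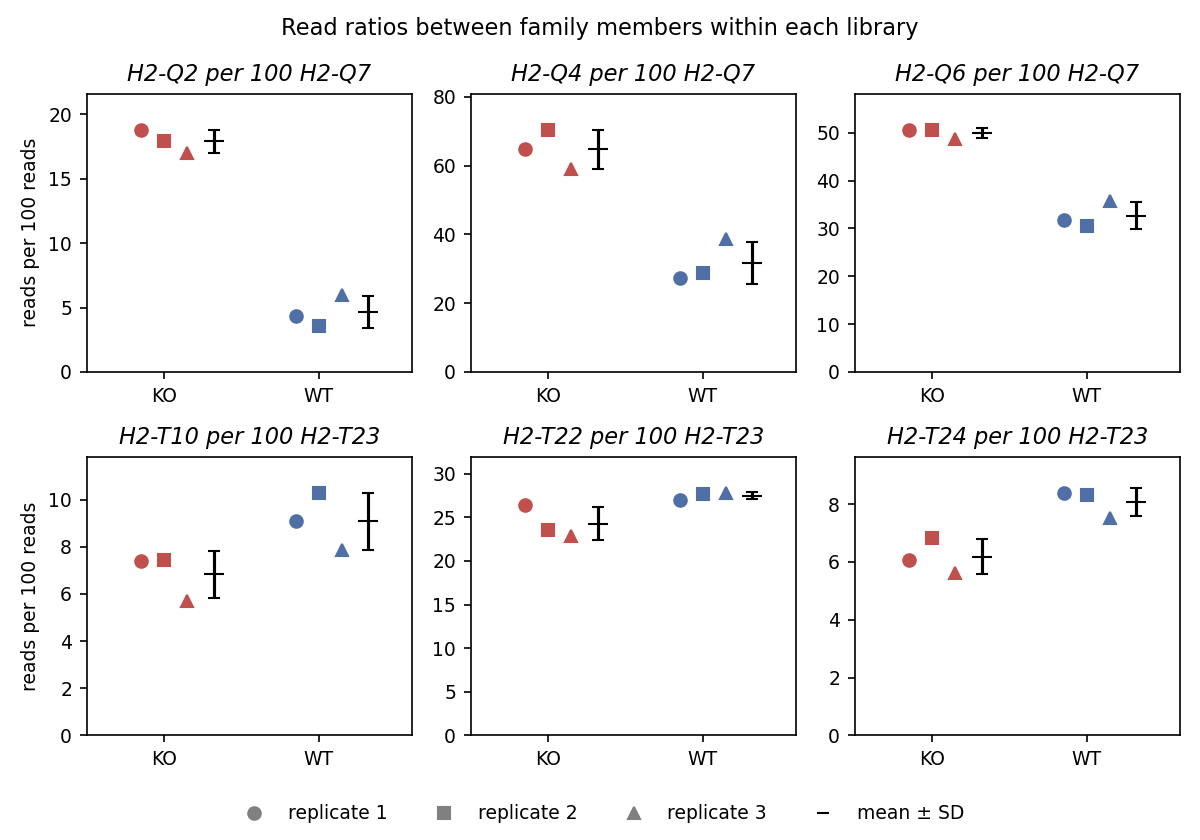
Reads of 1 gene for every 100 reads of a relative in the same library, KO at the left of WT, with points for the replicates and bars for mean and SD. The upper panels set H2-Q2, H2-Q4 and H2-Q6 against H2-Q7 and have all KO points above all WT points; the lower panels set H2-T10, H2-T22 and H2-T24 against H2-T23 and have all KO points below, by less.

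The promoters of H2-Q2 and H2-Q7 are shown because these 2 genes differed in opposite directions. Each window runs from 250 bases before to 50 bases after the start site (RefSeq, GRCm38.p6, plus strand). H2-Q2 lies at chr17:35342057-35342356 and H2-Q7 at chr17:35438905-35439204. Capitals mark matches, on either strand, to the core of an interferon-response element (GAAA, any 2 bases, GAAA), an NF-kB site (GGGA, any 4 bases, CC), TGACG (part of a cyclic AMP response element) and CCAAT (the Y box, read ATTGG on the opposite strand).
H2-Q2: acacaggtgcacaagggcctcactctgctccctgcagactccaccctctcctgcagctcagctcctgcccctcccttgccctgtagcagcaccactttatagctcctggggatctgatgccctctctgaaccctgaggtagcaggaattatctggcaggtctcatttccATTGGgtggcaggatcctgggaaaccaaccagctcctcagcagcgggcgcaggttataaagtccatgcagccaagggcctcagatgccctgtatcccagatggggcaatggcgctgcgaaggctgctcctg
H2-Q7: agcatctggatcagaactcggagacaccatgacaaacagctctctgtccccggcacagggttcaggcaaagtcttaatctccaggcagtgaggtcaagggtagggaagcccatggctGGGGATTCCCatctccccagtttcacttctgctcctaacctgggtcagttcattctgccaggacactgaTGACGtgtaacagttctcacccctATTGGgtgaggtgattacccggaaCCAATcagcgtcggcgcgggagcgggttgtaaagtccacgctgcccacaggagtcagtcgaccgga
H2-Q2 held a single match, a Y box at position -81. H2-Q7 held an NF-kB match at -133, a TGACG at -64 and Y boxes at -40 and -16. Positions count from the RefSeq start site of each gene. In H2-Q2 that site lies inside the GENCODE gene, which starts at 35342242, whereas in H2-Q7 it is also the GENCODE start. Positions in the 2 windows are therefore not directly comparable. A match is a description of letters, not a site of binding, and no match says only that these letters are not in the window.

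In the T region, H2-T23 had the most reads, and its groups overlapped. This Qa-1 gene had 768, 934 and 939 CPM in KO libraries, against 1134, 1158 and 900 CPM in WT libraries, with WT replicate 3 inside the KO range. Means were 880 ± 97.3 CPM in KO and 1064 ± 143 CPM in WT, and edgeR put the log2 fold change at -0.27 (SE 0.14, adjusted p = 0.381). Without WT replicate 3 it was -0.38, and the groups did not overlap. H2-T22 had 203, 220 and 215 CPM in KO, against 306, 320 and 250 CPM in WT, with no overlap. The log2 fold change of this gamma-delta receptor ligand was -0.46 (SE 0.13, edgeR adjusted p = 0.13), and it passed with DESeq2 (adjusted p = 0.036) and, at -0.55, without WT replicate 3 (edgeR adjusted p = 0.0331), within a range of 0.0331 to 0.42 over the alternatives.

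H2-T10, its near copy, had 56.9, 69.4 and 53.4 CPM in KO libraries, against 103, 119 and 70.8 CPM in WT libraries. WT replicate 3 lay just above the highest KO library, so the groups did not overlap. edgeR put the log2 fold change at -0.69 (SE 0.21, adjusted p = 0.158), or -0.88 without WT replicate 3 (edgeR adjusted p = 0.0299; 0.0299 to 0.481 over the alternatives). The row kept for H2-T10 is a noncoding transcript, and its coding transcript had 4154 reads in all beside 4168. H2-T24 had 46.6, 63.9 and 52.9 CPM in KO, against 95.1, 96.5 and 67.7 CPM in WT, again without overlap. edgeR gave it a log2 fold change of -0.66 (SE 0.19, adjusted p = 0.146), or -0.81 without WT replicate 3 (edgeR adjusted p = 0.0445; 0.0445 to 0.446 over the alternatives). For every 100 reads of H2-T23 there were 6.18 ± 0.611 reads of H2-T24 in KO and 8.08 ± 0.482 in WT, and 24.3 ± 1.88 reads of H2-T22 in KO and 27.5 ± 0.424 in WT. H2-T10 and H2-T22 share sequence, and whether they share reads was not tested, so their differences may not be separate observations.

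The promoters of H2-T22 and H2-T23 are shown as the pair that held the interferon-response core, with capitals as above. Both are on the minus strand (RefSeq, GRCm38.p6), H2-T22 at chr17:36042693-36042992 and H2-T23 at chr17:36032652-36032951, and are printed in the direction of transcription.
H2-T22: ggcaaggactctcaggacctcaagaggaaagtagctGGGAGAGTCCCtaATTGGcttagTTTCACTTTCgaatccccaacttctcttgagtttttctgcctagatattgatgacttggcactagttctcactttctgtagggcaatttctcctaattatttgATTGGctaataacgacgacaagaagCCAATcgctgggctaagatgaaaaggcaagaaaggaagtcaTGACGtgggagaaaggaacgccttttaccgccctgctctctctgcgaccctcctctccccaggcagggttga
H2-T23: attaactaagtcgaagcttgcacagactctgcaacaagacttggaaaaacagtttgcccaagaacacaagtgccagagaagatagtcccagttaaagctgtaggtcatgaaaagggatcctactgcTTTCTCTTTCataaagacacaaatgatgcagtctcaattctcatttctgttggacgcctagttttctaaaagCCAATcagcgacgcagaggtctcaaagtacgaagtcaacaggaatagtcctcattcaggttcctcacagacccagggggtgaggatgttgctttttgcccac
The match lay at position -191 in H2-T22 and at -124 in H2-T23. Promoters were matched for 7 of the 9 genes, and 2 of the 7 held the interferon-response core, which 3.44% of all 32851 promoters of the same length hold. The search was exact and misses near matches. The letters TTTCACTTCT, close to the match in H2-T22, stand unmarked in H2-Q4, H2-Q6, H2-Q7 and H2-M3. They also stand in the promoters of the classical genes H2-K1 and H2-D1, which held no match to the core. Whether these letters act in an interferon response was not tested. An NF-kB match was found in 5 (H2-Q4, H2-Q6, H2-Q7, H2-T22 and H2-M3; 20.73% of all promoters), TGACG in 4 (H2-Q4, H2-Q7, H2-T22 and H2-M3; 20.81%) and CCAAT in 7 (37.41%). Long stretches of the H2-Q4, H2-Q6 and H2-Q7 promoters have the same letters, so their matches are not separate observations. In H2-M3 the Y box at -129 overlapped the NF-kB match at -126, and NF-kB matches on both strands overlapped in H2-Q4, H2-Q6 and H2-T22. No entry under the symbols H2-T10 and H2-T24 was found among the promoters searched.

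H2-M3, the gene for the formyl-peptide presenter, varied little within groups. It had 78.0, 82.5 and 73.3 CPM in KO libraries, against 98.2, 93.7 and 89.3 CPM in WT libraries. The groups did not overlap, though the step between them was small. Means were 78.0 ± 4.59 CPM in KO and 93.7 ± 4.43 CPM in WT, and edgeR put the log2 fold change at -0.27 (SE 0.13, adjusted p = 0.365). Reads of H2-M3 for every 100 of H2-K1 were 1.87 ± 0.234 in KO and 2.25 ± 0.437 in WT, with overlap.

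**Figure D4:**
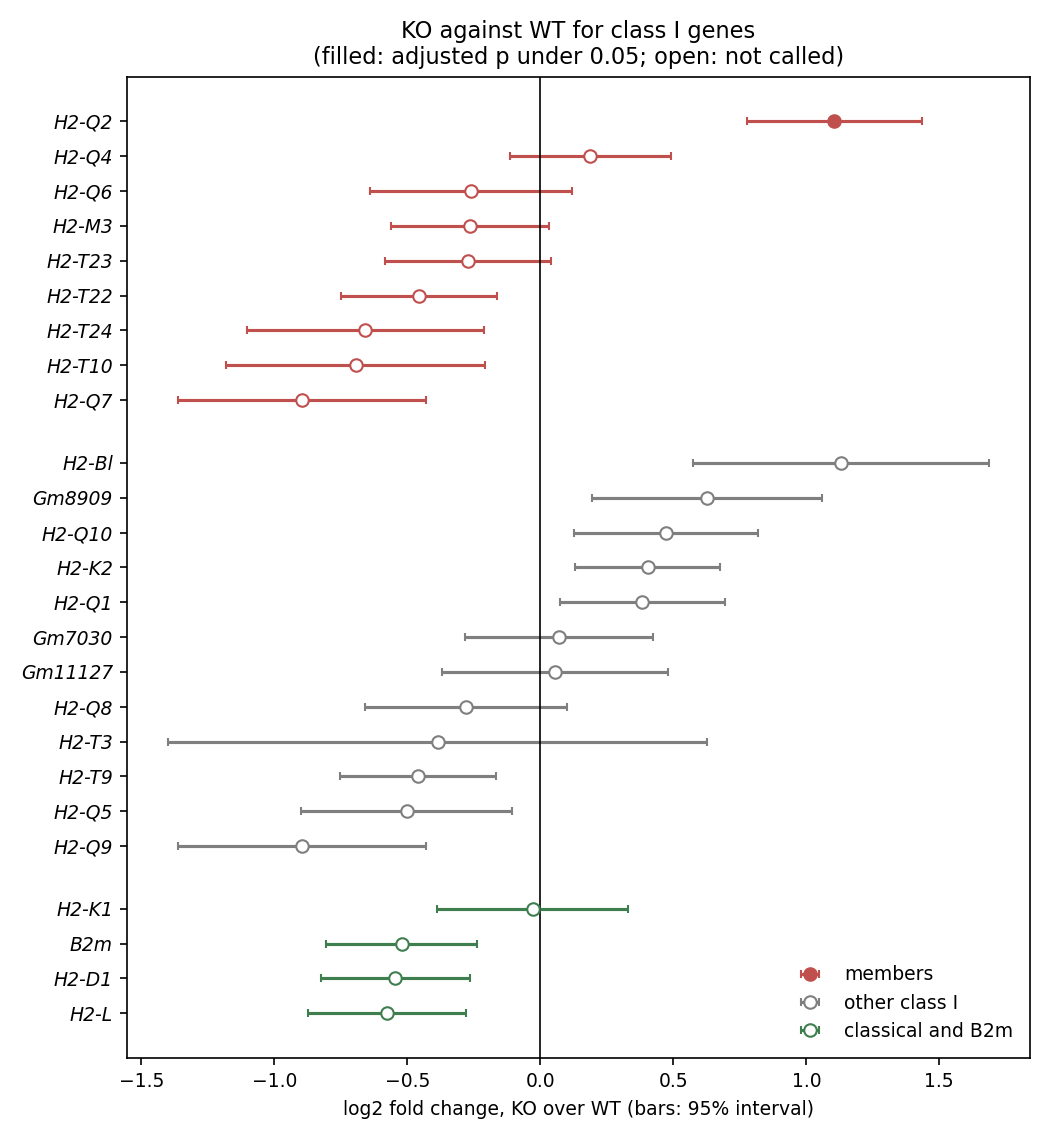
Log2 fold change of KO over WT for the 9 genes (red), other class I genes (grey) and the classical genes with B2m (green), with 95% confidence intervals from edgeR. Filled points passed an adjusted p under 0.05, and the line at 0 is no difference. H2-Q2 lies at 1.11 and is the called member, while H2-Q7, H2-T10 and H2-T24 lie at -0.90, -0.69 and -0.66 without a call.

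Levels between genes were compared per kilobase of the deposited transcript length. In KO libraries the order was H2-T23 (668 CPM per kilobase), H2-Q7 (413), H2-Q6 (323), H2-Q4 (228), H2-T22 (120.9), H2-Q2 (103), H2-M3 (54.7), H2-T24 (24.96) and H2-T10 (20.7). Only the last pair, H2-T24 and H2-T10, had overlapping ranges over the 3 KO libraries. In WT libraries H2-T23 (808) and H2-Q7 (769) overlapped, and H2-Q7 was the higher in 2 of 3 libraries. They were followed by H2-Q6 (387), H2-Q4 (201), H2-T22 (166), H2-M3 (65.8), H2-Q2 (47.8), H2-T24 (39.6) and H2-T10 (33.7). Among these, H2-Q4 overlapped H2-T22, H2-Q2 overlapped H2-T24, and H2-T24 overlapped H2-T10. The Qa-1 gene was thus first by mean in both groups, and H2-Q2 stood above H2-M3 in KO but below it in WT. Whether shared sequence affects these levels was not tested.

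Reads were also set against those of B2m, the class I light chain, within each library. B2m itself averaged 1993 ± 93.3 CPM in KO and 2861 ± 430 CPM in WT (a log2 fold change by edgeR of -0.52 with an SE of 0.12, adjusted p = 0.0865). H2-Q2 had 56.2, 54.97 and 59.3 reads for every 1000 of B2m in KO libraries, against 21.9, 14.9 and 19.1 in WT libraries. H2-Q4 had 194, 216 and 205 in KO, against 137, 119 and 123 in WT, and H2-M3 had 41.2, 39.8 and 36.5 in KO, against 36.4, 28.0 and 35.2 in WT. In these 3 genes every KO library was above every WT library, for H2-M3 by a narrow margin. In the other 6 the groups overlapped: H2-Q7, for example, had 299, 307 and 348 in KO, against 501, 414 and 319 in WT.

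Other genes of the class I system were set beside these, from lists drawn up with earlier results of these data known. Of 18 tested other non-classical or class I-like genes (28 listed), edgeR called 0, DESeq2 3 higher and 2 lower, and limma-voom 1 higher, or 1 higher and 1 lower with quality weights. Over all genes DESeq2 called 2.89% higher and 3.9% lower, more than the 0.755% and 0.983% of edgeR. By edgeR 8 of the 18 had an unadjusted p under 0.05, 5 higher and 3 lower, against 15.86% of all tested genes in either direction. In 5 of the 18 the KO libraries lay above the WT libraries and in 2 below, against 10.45% and 11.54% of all tested genes. Other class I genes than H2-Q2 were thus higher in KO too, without a call by edgeR. The 2 below were H2-Q9 and H2-T9, which are also among the 3 lower by unadjusted p. Their counts nearly repeat those of H2-Q7 and H2-T22, so they are not separate observations. The median log2 fold change of the 18 was 0.055. H2-Bl, annotated as a polymorphic pseudogene, was nearest to a call, with 150 ± 2.78 CPM in KO and 68.6 ± 23.9 CPM in WT (a log2 fold change by edgeR of 1.13 with an SE of 0.24, adjusted p = 0.0644, or 0.0229 without WT replicate 3 and 0.000409 to 0.267 over the alternatives). H2-Q9, the twin of H2-Q7 in this table, had -0.90 (edgeR adjusted p = 0.0758). Among the classical genes, H2-K1 differed little (4187 ± 320 CPM in KO and 4273 ± 896 CPM in WT, log2 fold change -0.029, edgeR adjusted p = 0.952). H2-D1 had 4775 ± 417 CPM in KO and 6968 ± 909 CPM in WT (a log2 fold change by edgeR of -0.55 with an SE of 0.12, adjusted p = 0.0731), and H2-L had -0.58 (0.0742). Of these 4 genes with B2m, edgeR called 0, limma-voom 0 and DESeq2 3 lower, as did limma-voom with quality weights and edgeR without WT replicate 3, and 3 had an unadjusted p under 0.05. DESeq2 called 3.9% of all genes lower, and 15.86% of all genes had an unadjusted p under 0.05 by edgeR. H2-L had no match in GENCODE M21 and lay 27.4% to 30.4% below H2-D1 in every library, so it may not be a gene separate from H2-D1 in these counts.

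Of 13 genes that make and load class I peptides, 5 fell in KO libraries and 0 rose, against 0.983% and 0.755% of all tested genes. The median was -0.57. The immunoproteasome subunit genes Psmb10 and Psmb9 had log2 fold changes of -0.81 (edgeR adjusted p = 0.0341) and -0.75 (0.0402), and the peptide-loading chaperone gene Tapbp -0.71 (0.044). All calls on this list were lost without KO replicate 1, 2 or 3 or WT replicate 1 or 2 (0 called in each), without WT replicate 3 there were 8, and non-robust estimation left 1. Of 16 transcriptional regulators, 2 fell and 1 rose, against the same shares of all tested genes (0.983% and 0.755%). The interferon signal transducer gene Stat2 had a log2 fold change of -1.28 (edgeR adjusted p = 0.0131), and the NF-kB subunit gene Nfkb1 had 1.12 (0.0349). Both calls were lost without KO replicate 1 or 3 or WT replicate 1 or 2 (edgeR adjusted p from 0.0522 to 0.191), and Nfkb1 also lost its call on scaling to pan-T cell genes (0.206). Nlrc5, the class I transactivator, had 150, 203 and 153 CPM in KO libraries, against 325, 300 and 228 CPM in WT libraries, with no overlap. edgeR gave it a log2 fold change of -0.75 (SE 0.18, adjusted p = 0.0865, or 0.0181 without WT replicate 3 and 0.00387 to 0.342 over the alternatives).

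Among 27 type I interferon response genes 15 fell, against 0.983% of all tested genes. All 27 had KO libraries below WT libraries, as did 11.54% of all tested genes. For Ifi44 (0.408 ± 0.355 CPM in KO and 3.01 ± 1.98 CPM in WT) this order was fixed in advance. It passed the filter on low counts only through its WT libraries. The median of the 27 was -2.18, beside -0.27 over the 9 class I genes. Rsad2, Bst2 and Oas3, antiviral effectors, had log2 fold changes of -2.68, -2.18 and -2.39 (edgeR adjusted p = 0.00918, 0.0119 and 0.0124). Their calls were lost without KO replicate 1 or 3 or WT replicate 2 (edgeR adjusted p from 0.0513 to 0.099), that of Oas3 also without WT replicate 1 (0.0522). With lung epithelial reads as a covariate, edgeR called 0 genes of the loading, regulator and interferon response lists, and the medians were -0.57, -0.42 and -1.97. In that fit 8, 6 and 25 genes of these lists had an unadjusted p under 0.05, as did 1832 of all 12720 genes. Of 6 tested interferon and interferon receptor genes edgeR called 0, DESeq2 and limma-voom 1 higher each, and limma-voom with quality weights 0. By edgeR 3 of them had an unadjusted p under 0.05, against 15.86% of all tested genes. The receptor chain genes Il10rb and Ifnar1 had 0.71 (edgeR adjusted p = 0.0549, or 0.0401 without WT replicate 3 and 0.00113 to 0.421 over the alternatives) and 0.37 (0.174). Among receptors that bind non-classical class I molecules, 6 of 11 listed genes were tested. Of these edgeR called 0, limma-voom 0 with or without quality weights and DESeq2 1 lower. By edgeR 2, Klrc1 and Klrk1, had an unadjusted p under 0.05, against the same 15.86%. Klrc1, which is also the gene that DESeq2 called, passed the filter on low counts only through its WT libraries. Its lower KO level was therefore fixed in advance. Klrc1, which encodes NKG2A, the receptor of Qa-1, averaged 0.447 ± 0.0497 CPM in KO and 6.17 ± 8.34 CPM in WT, and Klrk1, which encodes NKG2D, 1.62 ± 0.322 CPM in KO and 20.8 ± 30.6 CPM in WT. Without WT replicate 3, 0 of the 6 had an unadjusted p under 0.05. CD8 and NK cell markers (7, Klrk1 among them) took 0.0422% of reads in WT replicate 3 and at most 0.00359% in the other 5 libraries, and the part of these cells was not tested.

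**Figure D5:**
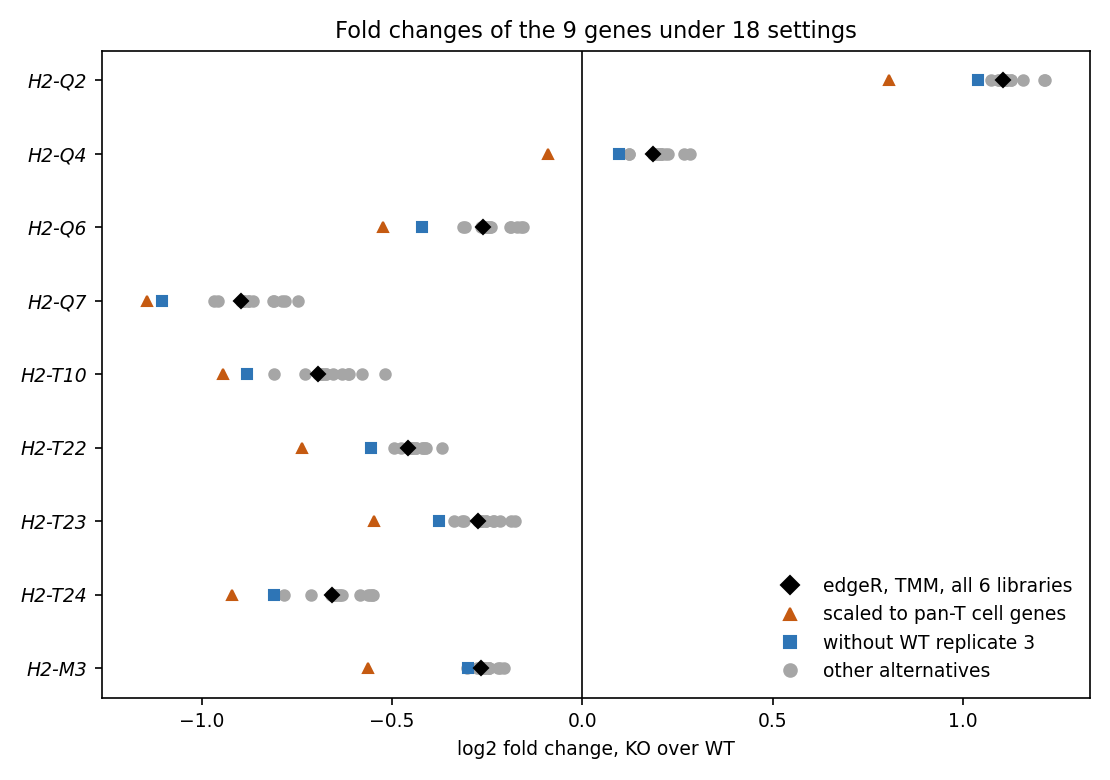
Log2 fold change of KO over WT of each of the 9 genes under the main analysis and its 17 alternatives. Black diamonds are edgeR with TMM on all 6 libraries, orange triangles the scaling to pan-T cell genes, blue squares the fit without WT replicate 3 and grey points the others. H2-Q2 stayed between 0.81 and 1.21 and H2-Q7 between -1.14 and -0.75, and H2-Q4 crossed 0 on scaling to pan-T cell genes.

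The mean log2 CPM of the 9 genes was 7.50, 7.72 and 7.64 in KO libraries and 7.98, 7.999 and 7.58 in WT libraries, so WT replicate 3 lay among the KO libraries. Of 10336 other genes with a mean of at least 5 CPM, those that followed this mean most closely over the 6 libraries were Atp10a (Pearson r 0.9911), Hist1h2bm (0.9887), Stk38l (0.9855), Invs (0.985) and Obfc1 (0.9848). These correlations describe 6 libraries that share depth and marker differences, and none of the 5 genes was called.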

How the data were processed

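Treg RNA was sequenced in 3 KO and 3 WT libraries. The deposited table holds unnormalized counts of reads for each RefSeq transcript and its length, per the file headers. The submitters' processing notes name TopHat2 2.2.1, Bowtie2 2.2.6, bcl2fastq and build mm10. The counting program and its handling of strand and multiply mapped reads are not stated by the sources used here. One row per symbol (1) was kept, the one with the highest total, from 31682 rows. filterByExpr removed low genes (at least 10 counts, 15 in total), and the rest were scaled by TMM and tested with edgeR 4.0.16 (quasi-likelihood, robust) in R 4.3.3, with Benjamini-Hochberg adjustment over all 12720 genes. The SE of a log2 fold change is its size over the root of F. DESeq2 1.42.0, limma 3.58.1 (voom), other scaling factors, a lung epithelial covariate, a replicate block and leaving out each library were alternatives. The counts of genes whose groups do not overlap were added under these alternatives after seeing the data. Motifs and 50-base windows were found by exact search, and coding sequences were aligned with Biopython 1.88. The members and lists were chosen with earlier results of these data known. All 9 members are named. Each other list is represented by its called genes of smallest p (up to 3) or, with no call, by the 2 tested genes of smallest p, and H2-K1, H2-D1, B2m, Nlrc5 and Crlf2 always. Genes of like pattern are the 5 of highest Pearson r. A gene named by this rule is included in the counts, but its values are not reported here.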

Additional observations from a re-analysis of the deposited data

How the results depend on the processing

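Against 221 genes called by edgeR, DESeq2 called 863, a lung epithelial covariate left 8, and leaving out single libraries gave 4 to 518 (4 without KO replicate 1, 7 without KO replicate 3, 22 and 33 without WT replicates 2 and 1, 124 without KO replicate 2, 518 without WT replicate 3). Members called lower numbered 1 on scaling to pan-T cell genes and with voom quality weights, 2 with DESeq2, and 0 to 4 without single libraries, against 0. Members called higher numbered 0 on pan-T scaling and with the covariate, and 0 to 1 without single libraries, against 1. Members with KO above WT numbered 1 to 2 without single libraries (2 without KO replicate 1 or WT replicate 2). Those with KO below WT numbered 5 to 7 without single libraries (7 without WT replicate 3) and 4 to 7 over all alternatives, against 5. Scaling to pan-T cell genes also gave 7, and it lowered the median of all genes to -0.36. Such arrangements are easier to meet with fewer libraries. Their share over all genes was not counted in these alternatives, so these counts are not set against a background. Scaling to pan-T cell genes gave a median over the members of -0.56, which is -0.20 relative to all genes (-0.23 before), H2-Q4 at -0.091, and 25 higher with 170 lower calls, against 96 and 125. H2-K1 changed sign with limma-voom (0.053), the covariate (0.00062) and without KO replicate 1 or 2 or WT replicate 1 or 2 (range without single libraries -0.19 to 0.11). The cause was not tested. Same-numbered libraries did not deviate together (r 0.0837, -0.147 and -0.0444, not each the best match), so no pairing was assumed. With the replicate number as a block 123 genes were called (32 higher, 91 lower), H2-Q2 among them (adjusted p = 0.0463), while the class I loading list kept 0 of its 5 calls (Psmb10 0.088, Psmb9 0.108, Tapbp 0.123). WT replicate 2, with 1439736 reads, limits the precision of low genes.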
